A study of Mus musculus with 6 samples.

Results

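The regulated secretory pathway stores peptides and their precursors in dense-core vesicles, and 10 genes of this pathway were followed here after Kdm6b was lowered in cultured mouse neurons. They are the granins and granin-like genes Chga, Chgb, Scg2, Scg3, Scg5 and Pcsk1n, the proprotein convertases Pcsk1, Pcsk2 and Pcsk5, and the carboxypeptidase gene Cpe. All 10 of the 10 listed genes were found among the 23366 genes of the count table by their exact symbols, and all 10 passed the filter on low counts. Of these, 9 were listed for their function, with earlier results of the same libraries already known. Pcsk5 was chosen by its measured rise in the knockdown in those results. The difference in Pcsk5 is therefore given as a description, without a test.

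The libraries came from cerebellar granule neurons of C57BL/6 mice at postnatal day 7, purified on a Percoll gradient and grown in culture. All cultures were infected with lentivirus on day 1 in vitro. The control group (n = 3) received the empty pLKO.1 vector, and the knockdown group (n = 3) received pLKO.1 with a short hairpin RNA against Kdm6b, an enzyme that removes methyl groups from lysine 27 of histone H3. The labels' protocol speaks of more than one hairpin and gives the sequence of a single one, so which hairpin the knockdown libraries received is not certain. The control carries no hairpin, and the cells of each culture are pooled from a litter, which limits the groups as a model of Kdm6b loss. The labels' protocol says that BDNF was added to some cultures and does not say to which. The labels do not say on which day cells were harvested or whether the 3 replicates were separate cultures, so p-values measure only the spread among these libraries.

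Granins are acidic secretory proteins that aggregate in the late Golgi and help to form the cores of dense-core vesicles. In the maturing vesicle the convertases encoded by Pcsk1 and Pcsk2 cut prohormones at paired basic residues, and carboxypeptidase E removes the basic residues that remain. Scg5 encodes 7B2, a chaperone that the Pcsk2 enzyme needs to become active, and Pcsk1n encodes proSAAS, an inhibitor of the Pcsk1 enzyme. The Pcsk5 enzyme is made in many tissues, with soluble and membrane-bound forms, and is not restricted to neuroendocrine cells. In granule neurons the vesicle priming factor encoded by Cadps2 is known for its part in the release of neurotrophin.

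Gene counts per library ranged from 50326298 to 88214069. Kdm6b was at 257, 146 and 170 CPM (counts scaled to the TMM library size) in control replicates 1 to 3 and at 88.8, 63.3 and 79.8 CPM in knockdown replicates 1 to 3, and the groups did not overlap. The antisense gene Kdm6bos overlaps its exons. Libraries that carry the same replicate number in both groups deviated together from their group means, so values are given from a model without and from a model with that number as a block. Kdm6b had a log2 fold change of −1.31 (SE 0.25, edgeR adjusted p = 0.216) without the block and fell by 1.28 (SE 0.11, edgeR adjusted p = 0.0282) with it. Granule neuron markers were present in every library: the 13 listed genes summed to 4017 to 5657 CPM in the control libraries and to 3848 to 5331 CPM in the knockdown libraries. Single markers went opposite ways: Barhl1 (log2 fold change 1.57) and Reln (0.67) were higher in the knockdown libraries without overlap, and Gabrd (−1.51), Etv1 (−1.40) and Slc17a7 (−1.21) were lower without overlap. With the block Barhl1 and Etv1 passed the edgeR test (adjusted p = 0.0335 and 0.0299).

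The 9 genes listed for their function did not pass the test. No gene of the 9 passed an adjusted p of 0.05 in edgeR's quasi-likelihood test (0 higher, 0 lower), either without the replicate block, where 0.00636% of the 15731 genes tested passed, or with it, where 7.98% passed. DESeq2 called 0 of the 9 and 3.61% of all genes, and limma-voom also called 0 of the 9 (0.00636% of all genes). At an unadjusted edgeR p under 0.05, 1 of 9 was higher without the block (4.75% of all genes) and 2 of 9 with it (15.8%), and 0 of 9 were lower in either (5.8% of all genes without the block and 18.2% with it). Of the 9 genes 6 had a positive and 3 a negative fitted log2 fold change, with a median of 0.12 beside 0.02 for all genes tested. In 1 of the 9 the groups did not overlap, beside 16.7% of all genes. In 4 of the 9 the knockdown library was the higher in all 3 replicate pairs (31.7% of all genes), and in 2 of the 9 it was the lower in all 3 (28.5%).

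**Figure D1:**
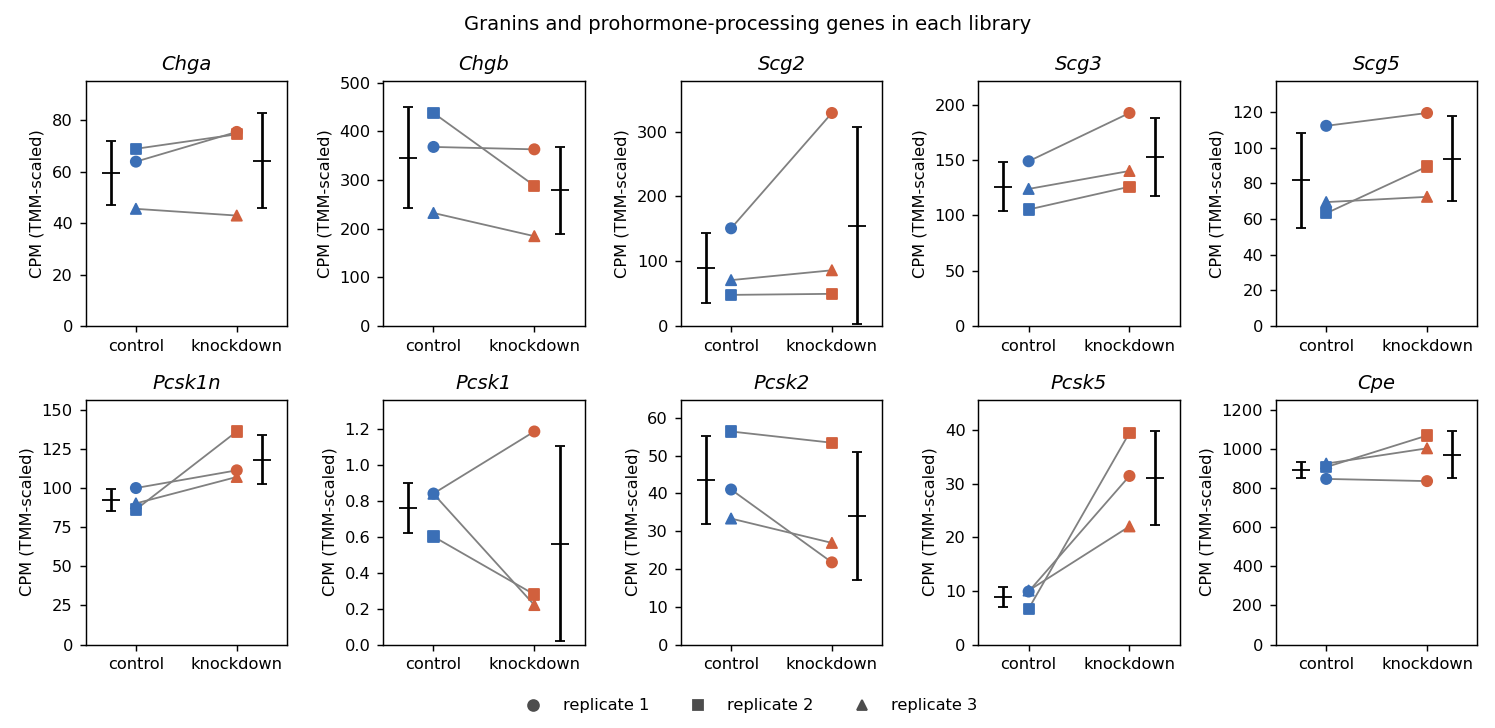
Level of the 10 genes (CPM, TMM-scaled, with each linear axis starting at 0) in each of the 6 libraries, with lines joining libraries of the same replicate number and black bars for the group mean and SD (n = 3). Control and knockdown values overlapped in 8 genes, and the knockdown values of Pcsk1n and Pcsk5 lay above all controls.

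The genes span a wide range of expression in these cultures, which is shown by dividing CPM by the exonic length of each gene (CPM per kb, GENCODE M21 lengths matched by symbol). Cpe was highest, at 343 ± 15.7 CPM per kb (SD, n = 3) in controls, a level above 99.7% of the 14748 tested genes with a length. Chgb followed at 126 ± 38.2 CPM per kb (SD, n = 3). Both stood clear of the next gene in every control library. Scg5 (52.0), Scg3 (46.0), Pcsk1n (42.1) and Scg2 (35.7 CPM per kb) came next, and neighbours in this order overlapped between control libraries, as did Scg2 and Chga (21.5 CPM per kb).

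The convertases were far lower than the granins on the same scale. For Pcsk2 this depends on the length used, which counts every annotated exon (7910 bases, against 2756 for Chga). In CPM not divided by length, Pcsk2 (33.3 to 56.4) overlapped Chga (45.5 to 68.8) among the control libraries. Pcsk2 was at 5.51 ± 1.48 CPM per kb (SD, n = 3) in controls, near the middle of all genes (percentile 50.2). Pcsk5 was at 0.615 ± 0.132 CPM per kb (SD, n = 3, percentile 16.9) and Pcsk1 at 0.136 ± 0.0246 CPM per kb (SD, n = 3, percentile 5.88). In CPM per kb Chga, Pcsk2, Pcsk5 and Pcsk1 were separated from one another in every control library. The order of the means in knockdowns was the same except for Scg2, which moved from rank 6 to rank 3 on the strength of 1 library, described below. Pcsk5 kept rank 9 of 10, at 2.15 ± 0.606 CPM per kb (SD, n = 3).

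**Figure D2:**
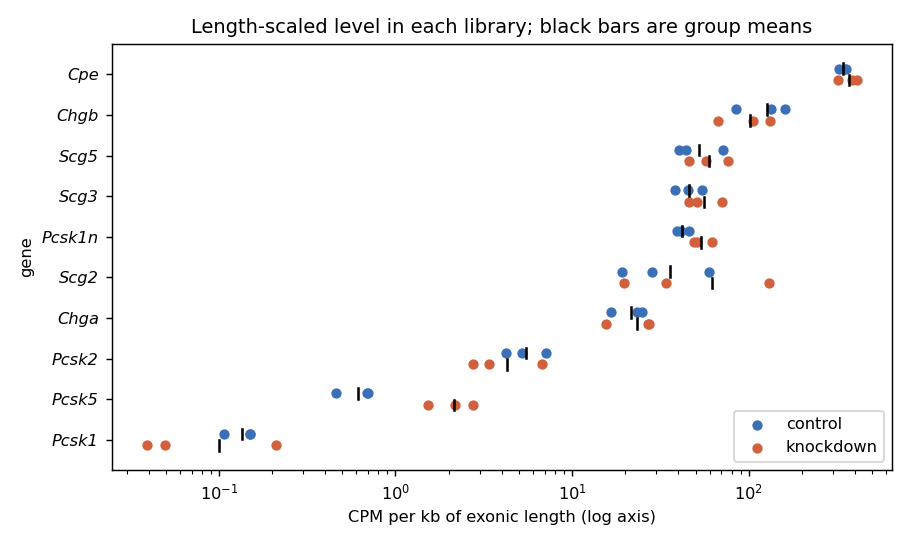
CPM per kb of exonic length (log axis) of each gene in the 3 control and 3 knockdown libraries, ordered by the control mean, with black bars for group means. Cpe lies highest, with means of 343 and 372 CPM per kb, and Pcsk1 lowest, with means of 0.136 and 0.100 CPM per kb.

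Chga and Chgb encode the chromogranins A and B. Chga was at 63.8, 68.8 and 45.5 CPM in control replicates 1 to 3 and at 75.4, 74.4 and 42.9 CPM in knockdown replicates 1 to 3. Replicate 3 was lowest in both groups, and the groups overlapped. Its log2 fold change was 0.11 (SE 0.27, edgeR adjusted p = 0.902) without the block and 0.09 (SE 0.09, edgeR adjusted p = 0.505) with it. The sign of this small difference turned without control replicate 3 (−0.06), without knockdown replicate 1 (−0.02) and without knockdown replicate 2 (−0.02).

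Chgb was at 368, 438 and 232 CPM in the control libraries and at 363, 289 and 185 CPM in the knockdown libraries. The knockdown library was lower in each replicate pair, by a log2 difference of −0.02, −0.60 and −0.33, while the groups overlapped and replicate 3 was again lowest in both. Chgb had a log2 fold change of −0.31 (SE 0.33, edgeR adjusted p = 0.758), and −0.32 (SE 0.13, edgeR adjusted p = 0.161) with the block. It was −0.09 when knockdown replicate 3 was left out and −0.55 when knockdown replicate 1 was left out.

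Scg2, the gene of secretogranin II, varied more between libraries of a group than between the groups. It was at 151, 48.0 and 70.8 CPM in the control libraries and at 329, 49.7 and 86.0 CPM in the knockdown libraries, so that the highest library was 3.14-fold above the lowest among controls and 6.62-fold among knockdowns. Replicate 1 was highest in both groups. The log2 difference was 1.12 in pair 1, 0.05 in pair 2 and 0.28 in pair 3. The log2 fold change of Scg2 was 0.78 (SE 0.77, edgeR adjusted p = 0.743) without the block and 0.49 (SE 0.22, edgeR adjusted p = 0.194) with it. It was −0.41 (edgeR adjusted p = 0.905) when knockdown replicate 1 was left out, 1.38 (edgeR adjusted p = 0.471) when control replicate 1 was left out, and 0.16 (edgeR adjusted p = 0.457) with the block and without replicate 1.

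Scg3, whose product binds chromogranin A and membrane cholesterol in the vesicle, showed the same order of libraries with a narrower spread. Its values were 149, 105 and 124 CPM in the control libraries and 193, 126 and 140 CPM in the knockdown libraries. The knockdown library was higher in each pair, by a log2 difference of 0.37, 0.26 and 0.18, and the groups overlapped because control replicate 1 exceeded knockdown replicates 2 and 3. For Scg3 the log2 fold change was 0.28 (SE 0.21, edgeR adjusted p = 0.656) without the block. With the block it was 0.27 (SE 0.07), the smallest adjusted p among the 9 genes (edgeR adjusted p = 0.0770), and it did not pass. Without knockdown replicate 1 the value without the block was 0.08.

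Scg5, the 7B2 chaperone gene, was at 112, 63.2 and 69.4 CPM in the control libraries and at 119, 89.3 and 72.4 CPM in the knockdown libraries. Replicate 1 was highest in both groups and the groups overlapped. The log2 difference was positive in each pair and was largest in pair 2, at 0.50. The fit gave Scg5 a log2 fold change of 0.20 (SE 0.28, edgeR adjusted p = 0.825), and 0.22 (SE 0.11, edgeR adjusted p = 0.232) with the block, and it was −0.01 without knockdown replicate 1. Across Scg2, Scg3 and Scg5, replicate 1 was thus the highest library of both groups. In all, 5 of the 10 genes had the same replicate highest in both groups, and Pcsk5, Pcsk1n, Cpe, Chga and Chgb did not. The same share over all genes was not computed.

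Pcsk1n, the proSAAS gene, was the 1 gene of the 9 whose groups did not overlap. It was at 100.2, 86.5 and 90.4 CPM in the control libraries and at 112, 136 and 107 CPM in the knockdown libraries. The means were 92.4 ± 7.08 CPM and 118 ± 15.7 CPM (SD, n = 3), a 1.28-fold difference. The fitted log2 fold change was 0.36 (SE 0.13), which passed an unadjusted p of 0.05 in edgeR and not the adjusted one (edgeR adjusted p = 0.441). With the block the log2 fold change was 0.35 (SE 0.12, edgeR adjusted p = 0.113). Over 20 alternative settings it ranged from 0.18 to 0.45 (adjusted p from 0.0755 to 0.907, from edgeR, DESeq2 or limma-voom). Exons of Pcsk1n overlap the gene Eras on the opposite strand, and no source used here states whether strand was used in counting, so its level is uncertain.

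Pcsk1 and Pcsk2, the convertases of the regulated pathway, both had negative fitted values. Pcsk1 was barely present, with 61, 30 and 44 counts in the control libraries and 106, 15 and 15 counts in the knockdown libraries (0.840, 0.600 and 0.838 CPM against 1.19, 0.278 and 0.220 CPM). Knockdown replicate 1 was above all controls and knockdown replicates 2 and 3 were below all of them. The log2 fold change of Pcsk1 was −0.42 (SE 0.69, edgeR adjusted p = 0.850), and −0.73 (SE 0.54, edgeR adjusted p = 0.385) with the block, and at these counts neither sign could be told from the spread between libraries. Without the block it was −1.61 when knockdown replicate 1 was left out and −0.04 when knockdown replicate 3 was left out.

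Pcsk2 was at 41.0, 56.4 and 33.3 CPM in the control libraries and at 21.7, 53.4 and 26.9 CPM in the knockdown libraries. The knockdown library was lower in each pair, by a log2 difference of −0.92, −0.08 and −0.31, and replicate 2 was highest in both groups. The log2 fold change of Pcsk2 was −0.36 (SE 0.38, edgeR adjusted p = 0.760) without the block and −0.43 (SE 0.17, edgeR adjusted p = 0.159) with it. Leaving out knockdown replicate 2 moved the value without the block to −0.86, and leaving out knockdown replicate 1 moved it to −0.12. Exons of Pcsk2 overlap the opposite-strand genes Pcsk2os1 and Pcsk2os2, so its level carries the same uncertainty as that of Pcsk1n.

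Cpe, the carboxypeptidase gene, was the most even of the 10 among controls. It was at 848, 908 and 926 CPM in the control libraries and at 837, 1070 and 1004 CPM in the knockdown libraries, with the highest control library 1.09-fold above the lowest. The groups overlapped, since knockdown replicate 1 lay below all controls. Cpe had a fitted log2 fold change of 0.12 (SE 0.16, edgeR adjusted p = 0.818), and 0.11 (SE 0.10, edgeR adjusted p = 0.460) with the block.

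Pcsk5 was listed for its difference, which is described here. It had 719, 334 and 529 counts in the control libraries and 2817, 2132 and 1508 counts in the knockdown libraries, or 9.90, 6.68 and 10.1 CPM against 31.5, 39.6 and 22.1 CPM. The lowest knockdown library was above the highest control library. The means were 8.89 ± 1.91 CPM and 31.0 ± 8.76 CPM (SD, n = 3), a 3.49-fold difference, with a fitted log2 fold change of 1.80 (SE 0.28) and of 1.78 (SE 0.29) with the block. The log2 difference was 1.67, 2.57 and 1.13 in pairs 1 to 3. It was 1.57 to 2.00 when any 1 library was left out, and with the block it was 1.39 without replicate 2 and 2.10 without replicate 3. Its exons overlap no other annotated gene in GENCODE M21, which lists 2 protein-coding transcripts that gene counts cannot tell apart.

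**Figure D3:**
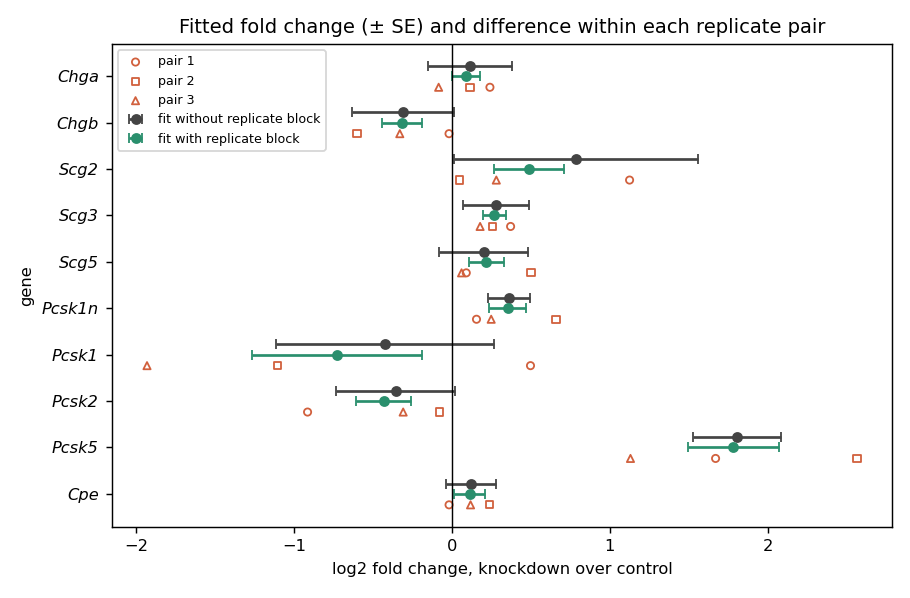
Fitted log2 fold change (knockdown over control) with its SE, without (dark) and with (green) the replicate block, and the log2 difference within each replicate pair (open symbols). Pcsk5 lies at 1.80 and 1.78, and the other 9 genes lie between −0.73 (Pcsk1 with the block) and 0.78 (Scg2 without it).

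Cells other than granule neurons also make some of these transcripts, so marker genes of those cells were summed in the same libraries. The 9 pericyte and fibroblast markers summed to 11309.8, 18665 and 20540.0 CPM in the control libraries and to 3733, 5136 and 9594 CPM in the knockdown libraries. Of the 9, 6 were lower in the fit with the block (5.4% of all genes were lower there) and 0 without it. Col1a1, Col1a2 and Col3a1 made up most of these sums, at 3598, 2833 and 4237 CPM in control replicate 1. The pericyte marker Rgs5 alone of the 9 had a positive fitted value (log2 fold change 0.68, SE 0.61, without the block). Its group means were 6.98 and 11.2 CPM, and the groups overlapped. The 7 endothelial markers summed to 86.2 to 162 CPM in the control libraries and to 67.4 to 177 CPM in the knockdown libraries. This sum did not follow each of its markers. In control replicate 2 Cdh5 was at 73.6 CPM, while Pecam1 was at 0.340 and Cldn5 at 0.0200 CPM. The 8 astrocyte markers ranged from 997 to 2924 CPM in the control libraries and from 492 to 3132 CPM in the knockdown libraries, and the 7 GABAergic interneuron markers from 198 to 495 CPM and from 121 to 376 CPM.

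The summed levels of the remaining lists overlapped between the groups. The 7 Purkinje cell markers summed to 48.6 to 98.0 CPM in the control libraries and 48.0 to 84.6 CPM in the knockdown libraries, and the 5 unipolar brush cell markers to 420 to 571 CPM and 373 to 485 CPM. The 7 oligodendrocyte lineage markers summed to 175 to 1117 CPM and to 146 to 848 CPM, with replicate 2 lowest in both groups. The 7 microglia markers summed to 43.6 to 78.4 CPM in the control libraries and 8.46 to 44.5 CPM in the knockdown libraries. In replicate 2 nearly all of this sum was Tmem119 (42.7 CPM in control and 13.8 CPM in knockdown), while C1qa was at 0.120 and 0.0557 CPM. P2ry12, another microglia marker, differed by 1.09-fold between the group means. With the block 1 of 13 granule neuron markers was higher and 1 lower. In each of the Purkinje cell (4 genes tested), GABAergic interneuron, astrocyte, oligodendrocyte and microglia (Tmem119) lists 1 marker was lower. In the endothelial and unipolar brush cell lists 0 passed. In each of these lists 1 gene was lower without overlap and 0 were higher without overlap, beside 16.7% of all genes in either direction. They were Esam (log2 fold change −1.04, SE 0.22, edgeR adjusted p = 0.0553) and Eomes (−1.45, SE 0.29, edgeR adjusted p = 0.0510), both with the block. Over all genes 2.58% were higher and 5.4% lower with the block, and 1 gene of so short a list does not describe its cell type. Defining markers were at 0 counts in some libraries: Pcp2 in 3 and Skor2 in 4 of the 6 libraries for Purkinje cells, C1qb (knockdown replicate 2), Cx3cr1 and Aif1 (control replicate 2) for microglia, and the endothelial Cldn5 in knockdown replicate 2. The part of these cell types in the values of the 10 genes was not tested, and in bulk RNA fewer cells of a type and less RNA per cell cannot be told apart.

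The promoters of 3 of the granin and convertase genes hold the palindrome of the cAMP response element, the site through which cAMP and calcium signals reach several neuroendocrine genes. Windows around it are shown because members of very different level share it. They are given 5′ to 3′ on the strand of the gene, with the palindrome TGACGTCA in capitals, from RefSeq start sites in build GRCm38.p6 at chr2:132781544-132781603 (plus strand, Chgb), chr1:79440061-79440120 (minus strand, Scg2) and chr13:75089753-75089812 (plus strand, Pcsk1).
Chgb: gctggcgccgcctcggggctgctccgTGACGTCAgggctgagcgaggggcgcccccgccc
Scg2: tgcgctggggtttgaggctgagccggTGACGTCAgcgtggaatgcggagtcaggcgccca
Pcsk1: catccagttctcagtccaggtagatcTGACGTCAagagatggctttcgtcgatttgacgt

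In these 3 promoters the palindrome began 72 (Chgb), 68 (Scg2) and 78 (Pcsk1) bases before the RefSeq start site. GENCODE M21 starts Chgb at base 132781278 and Scg2, on the minus strand, at base 79440120. By those starts both palindromes lie inside the gene, and that of Pcsk1 (start at base 75089826) lies before it. A promoter of 300 bases was found for 9 of the 10 genes, Cpe not being among them. The palindrome was in 3 of these 9 and in 1.88% of 27025 promoters of the same length. The shorter core TGACG on either strand, which each palindrome holds in both orientations, was in 7 of the 9 and in 21.0% of all promoters. Pcsk5 and Pcsk1n had neither in this window. A match of letters is a description and not a site of binding. None of the 3 genes with the palindrome passed the edgeR test of the knockdown against the control.

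The other genes of the pathway were read in 6 lists drawn up by role. Without the block 0 of the 83 tested genes of these lists passed the edgeR test, and with the block 3 of them passed, all higher and all in the list of dense-core vesicle transport and release. Of the 29 tested genes of that list, 3 were higher and 0 lower, where 2.58% of all genes were higher. The list median was 0.01 on the log2 scale, with or without the block, beside 0.02 for all genes.

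Among these 3, Stx1a encodes syntaxin 1A, a plasma membrane SNARE of exocytosis. It was at 34.0, 12.7 and 34.6 CPM in the control libraries and at 95.9, 68.6 and 63.1 CPM in the knockdown libraries, without overlap. It rose by 1.59 (SE 0.31) on the log2 scale with the block (edgeR adjusted p = 0.04999), against 1.49 (SE 0.40, edgeR adjusted p = 0.334) without it. This call was lost with the block when replicate 1 (edgeR adjusted p = 0.125) or replicate 2 (edgeR adjusted p = 0.0594) was left out. Without replicate 1 no gene of the whole table passed with the block, so that loss is not particular to Stx1a.

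Syt5 encodes a synaptotagmin, a calcium-binding protein of secretory vesicles. It was at 30.4, 14.6 and 19.5 CPM in the control libraries and at 62.6, 55.0 and 38.1 CPM in the knockdown libraries, again without overlap. It rose by 1.30 (SE 0.21) with the block (edgeR adjusted p = 0.0403), against 1.27 (SE 0.32, edgeR adjusted p = 0.308) without it. The call was lost without replicate 1 (edgeR adjusted p = 0.105), where no gene of the whole table passed. Syt5 (adjusted p = 0.0142) and Stx1a (adjusted p = 0.0212) were also called by DESeq2, fitted without the block.

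Rab3a, a small GTPase of vesicle docking, rose by 0.38 (SE 0.07, edgeR adjusted p = 0.0475) with the block. Its groups overlapped, at 249, 217 and 176 CPM in the control libraries and 319, 300.4 and 220.0 CPM in the knockdown libraries. The Rab3a call was lost without any 1 of the 3 replicates (edgeR adjusted p from 0.0926 to 0.161) and with RLE factors (edgeR adjusted p = 0.0512). As above, no gene of the whole table passed without replicate 1. Its exons overlap Mpv17l2 on the opposite strand. The priming factor genes Cadps (189 ± 21.4 and 242 ± 54.0 CPM, SD, n = 3) and Cadps2 (487 ± 141 and 477 ± 184 CPM, SD, n = 3) did not pass.

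**Figure D4:**
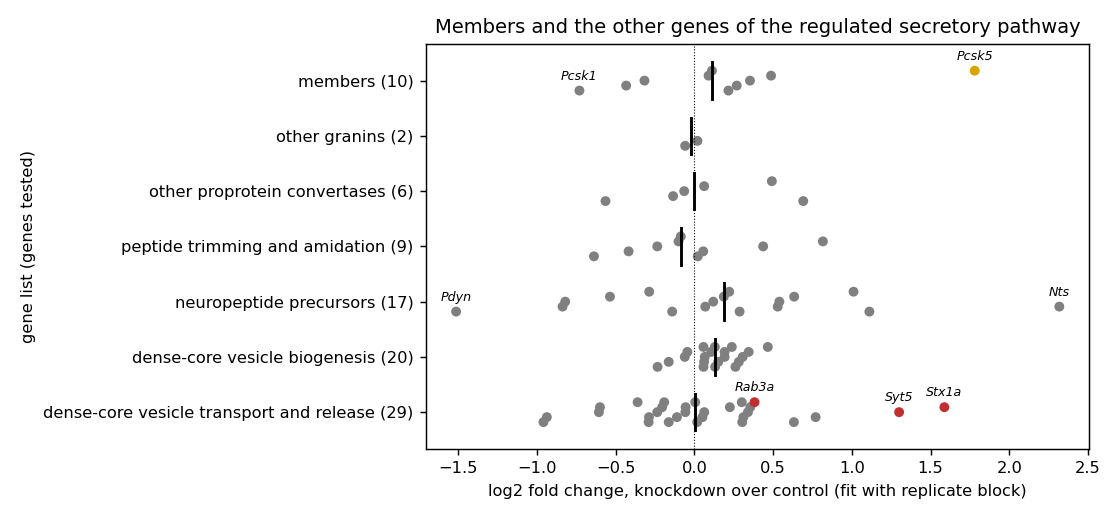
Log2 fold change (knockdown over control, model with the replicate block) of the 10 genes and of the tested genes of the 6 lists, with list medians as black bars (without Pcsk5 in the first row). Red points are Stx1a, Syt5 and Rab3a, whose adjusted p was under 0.05, and Pcsk5 is in yellow because no test is given for it.

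Neuropeptide precursors, the cargo that the convertases cut, were scarce. Of the 30 listed genes 17 were tested, and the 30 together summed to 40.4 to 49.5 CPM in the control libraries and to 40.1 to 67.9 CPM in the knockdown libraries. This was less than Chga alone in 4 of the 6 libraries and more in replicate 3 of both groups. These CPM are not divided by exonic length, which differs between genes. None of the 17 passed the edgeR test with or without the block (at an unadjusted p under 0.05 without the block, 1 was higher and 3 lower, beside 4.75% and 5.8% of all genes). DESeq2 called 2 of the 17, beside 3.61% of all genes. Pdyn, the prodynorphin gene and the one with the smallest p, was at 1.21, 0.740 and 1.16 CPM in the control libraries and 0.313, 0.390 and 0.380 CPM in the knockdown libraries. Its log2 fold change was −1.51 (SE 0.31, edgeR adjusted p = 0.0530) with the block and −1.52 (SE 0.34, edgeR adjusted p = 0.272) without it, and DESeq2 called it (adjusted p = 0.0143). Nts, the neurotensin gene, which was singled out after its values were seen, was at 0.716, 0.560 and 0.934 CPM in the control libraries and 1.46, 10.3 and 3.42 CPM in the knockdown libraries (log2 fold change 2.78, SE 0.75, edgeR adjusted p = 0.330, DESeq2 adjusted p = 0.00827). With the block it was 2.32 (SE 0.66, edgeR adjusted p = 0.0870). Without knockdown replicate 2, the highest library, the value was 1.71, and with the block and without replicate 2 it was 1.44.

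With TMM scaling the other 4 lists had no gene past the edgeR test with or without the block. Among 20 tested genes of dense-core vesicle biogenesis (of 21 listed) the smallest p was that of Ica1, an adaptor of immature secretory granules (log2 fold change 0.47, SE 0.09, edgeR adjusted p = 0.0512 with the block and 0.587 without it), and the list median was 0.13 in both fits. With the block Ica1 passed under upper-quartile factors (edgeR adjusted p = 0.04998) and under library totals alone (edgeR adjusted p = 0.0386). The list of 6 other convertases had its smallest p in Pcsk6 (log2 fold change −0.57, SE 0.14, edgeR adjusted p = 0.0688 with the block and 0.529 without it), and the widely expressed convertase gene Furin was at 112 ± 13.3 and 107 ± 5.24 CPM (SD, n = 3). Among 9 genes of peptide trimming and amidation it was Ctsl, the cathepsin L gene (log2 fold change −0.42, SE 0.10, edgeR adjusted p = 0.0693 with the block and 0.592 without it). Exons of Pcsk6 and Ctsl overlap other gene models. The last list held Vgf, a granin-like gene, and Gnas, whose gene count cannot separate its granin-like transcript from that of the G protein alpha subunit. Vgf was at 372, 163 and 236 CPM in the control libraries and 381, 150.3 and 221 CPM in the knockdown libraries (log2 fold change −0.04, SE 0.43, edgeR adjusted p = 0.983, and −0.06, SE 0.07, edgeR adjusted p = 0.598 with the block), with replicate 1 highest in both groups as for Scg2.

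Genes with the most similar pattern were found by the Pearson correlation of log2 CPM over the 6 libraries among 11780 genes that averaged 5 CPM or more, for the 9 of the 10 that did so themselves. These correlations are a description, since the libraries share replicate numbers and the search runs over many genes, and all lay between 0.983 and 0.998. The closest to Pcsk5 were Ift57, Tomm20 and Med31, and to Pcsk1n Chd5, Btbd11 and Pias2. The closest to Scg2 were Zc3h13, Copg2 and Trim45, to Scg3 Armcx5, Paip2b and Dhrs11, and to Scg5 Zfp711, AW554918 and Rccd1. For Chga they were 1500004A13Rik, Ccdc85b and Klhdc3, for Chgb Ppm1d, Zfp51 and Pde10a, and for Cpe Rnf149, Gtf2a1 and Slc40a1. No gene was shared between the sets of 3 named here.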

How the data were processed

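The authors deposited whole-number counts of reads per gene from stranded mRNA sequencing of 6 libraries. Build mm9 and the tools TopHat2, HTSeq, Trimmomatic, DESeq2 and edgeR are named in the submitters' processing notes. No source used here gives their versions, the annotation or the strand setting. Columns were matched to samples by description. The 5 tally rows that name no gene (reads outside genes 12.1% to 15.0%, not unique 16.0% to 19.3%, ambiguous 0.406% to 0.509%) were left out.

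filterByExpr (minimum count 10, minimum total 15) kept 15731 genes, which were scaled by TMM and tested with the quasi-likelihood F test of edgeR 4.0.16 (R 4.3.3), with Benjamini-Hochberg adjustment over all of them. SE is the absolute log2 fold change over the square root of F. Alternatives were other scalings and filters, DESeq2 1.42.0, limma-voom (limma 3.58.1), the replicate block and left-out libraries. The script was tested on simulated data, in which same-numbered libraries shared deviations only for the fit with the block. The fit without the block was not tried on data with such deviations. Same-numbered libraries' deviations correlated at 0.765, 0.717 and 0.690 across genes, others at −0.548 to −0.177; the pairing comes from the data. No 2 libraries of a group were alike within sampling noise (chi-square of 174 to 381 per degree of freedom).

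The members and lists were chosen with earlier results of these data known. Named list genes were up to 3 past the threshold by smallest p, or else the 1 with the smallest p; Cadps, Cadps2, Furin, Nts and single cell type markers were named beyond this rule. GENCODE M21 (GRCm38) was matched by symbol only. The genes most similar in pattern to Pcsk2 are not reported here.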

Additional observations from a re-analysis of the deposited data

How the results depend on the processing

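None of the 9 genes listed for function was called in any of 20 alternative settings, the replicate block included (0 of 9 in each, except that 8 of the 9 were tested under the filter at a mean of 5 CPM, which Pcsk1 did not pass). The count over all genes was 1 without the block, 0 with library totals alone, 568 with DESeq2 (178 higher, 390 lower), and 0 when any 1 library was left out. With the replicate block it was 1256 (406 higher, 850 lower), 1342 with RLE factors, 1350 with upper-quartile factors and 1276 with library totals alone, where the split was 723 higher and 553 lower. Leaving out a replicate with the block gave 0 to 1272 (0 without replicate 1, 53 without replicate 2). The count over the 6 pathway lists was 0 without the block, 4 with DESeq2 and 3 with the replicate block. It was 2 with the block and RLE factors, 4 with upper-quartile factors, 5 with library totals alone and 0 to 2 when a replicate was left out with the block. The causes were not tested. Of the 9 genes 6 were positive and 3 negative under each of the 4 scalings, and the median of all genes shifted by at most 0.07 on the log2 scale. With 3 libraries a group, an exact two-sided permutation test of 1 gene cannot give a p below 0.1.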
